A study of Bos taurus with 16 samples.

Results

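LAMA2, LAMA5, MXRA5 and CILP, 2 laminin alpha chain genes and 2 genes of other secreted matrix proteins, were followed in cumulus and granulosa cells of cattle (Bos taurus). They are 4 of 36824 entries in the deposited table of RNA-seq read counts, each found there under its own symbol. The members were chosen by earlier results on these same counts. LAMA2 and LAMA5 had been reported between the cell types, LAMA2 also by side in granulosa cells and LAMA5 by side in cumulus cells. CILP was selected on its side difference in cumulus cells, and MXRA5 on its side difference in granulosa cells and on how that difference changed between the cell types. The differences that chose a gene are therefore given below with their standard errors (SE) and no p value, and a test is reported only for comparisons in which that gene had not been named. CILP between cell types is described without a p value too, since it passed the filter on low counts there through the group that chose it.

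The 4 groups held 4 libraries each: cumulus cells from the ipsilateral side, cumulus cells from the contralateral side, granulosa cells from the ipsilateral side and granulosa cells from the contralateral side. In the follicle, granulosa cells form the lining of the wall and cumulus cells the layers around the oocyte. The side is that of the follicle's ovary relative to the corpus luteum, the gland that secretes progesterone after ovulation. Per the design text, cumulus-oocyte complexes were retrieved from aspirated follicular fluid. Each library was a pool from 3 animals. The labels do not say whether pools share animals, and give no age, breed or treatment beyond the side. Where the pools are not independent, p values measure only the spread between these libraries.

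Laminins are cross-shaped proteins of basement membranes, each built of an alpha, a beta and a gamma chain, and the alpha chain carries the globular end that binds integrins and dystroglycan on cells. In the ovarian follicle, the basement membrane separates the granulosa layer from the theca. LAMA2 encodes the alpha chain of muscle and nerve basement membranes, and LAMA5 the alpha chain of many epithelial ones. MXRA5 encodes a large secreted matrix protein with leucine-rich and immunoglobulin-like repeats, and CILP a secreted protein first known from cartilage that binds transforming growth factor beta.

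Total counts lay between 10.1 and 21.9 M (M, mega) per library, and counts of the 4 genes were small, from 0 to 337 in a library. Levels are given as CPM, counts per 1 M counts of a library after TMM scaling, and 3 counts, the limit that a count of 0 allows, came to between 0.135 and 0.317 CPM. These limits cover counting error only. Of 90 listed markers of 9 cell types, 4 were found by name, and none of the 13 granulosa or 8 cumulus markers, so the labelled cell types could not be checked against them. The 2 of 14 oocyte markers found, BCL2L10 and H1FOO, summed to between 0.670 and 1.38 CPM in ipsilateral cumulus, 0.843 and 204 CPM in contralateral cumulus, 0.0641 and 1.38 CPM in ipsilateral granulosa and 0 and 10.8 CPM in contralateral granulosa libraries. Contralateral cumulus libraries 4 and 2 and contralateral granulosa library 3 held most of them. In bulk libraries, fewer cells of a type and less RNA per cell cannot be told apart. MUC16, the 1 of 8 surface epithelium markers found, was at 0 in ipsilateral cumulus libraries and lay between 0 and 2.09 CPM in contralateral cumulus, 0 and 44.3 CPM in ipsilateral granulosa and 0 and 24.7 CPM in contralateral granulosa libraries. PF4, the only gene found of the 10 listed for leukocytes, encodes platelet factor 4, so leukocyte content could not be read from it. It was at 0 in ipsilateral cumulus libraries and lay between 0 and 0.243 CPM in contralateral cumulus libraries. In granulosa cells PF4 lay between 0.449 and 1.36 CPM in ipsilateral and 0.9746 and 3.91 CPM in contralateral libraries.

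**Figure D1:**
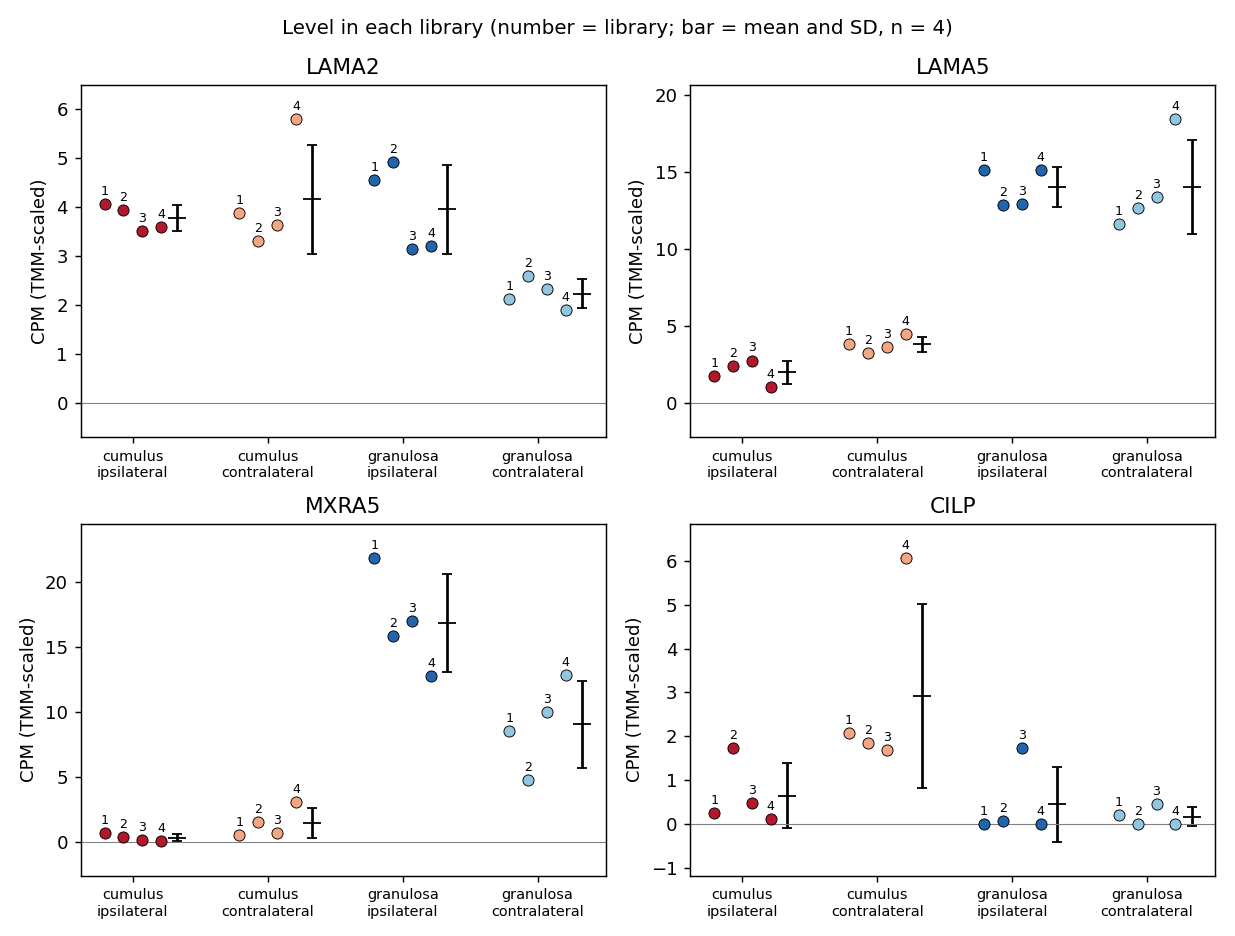
Level of each gene in each library (vertical axes, CPM after TMM scaling; numbers give the library), with the mean and SD of the 4 libraries of each group as a bar. LAMA5 and MXRA5 lay higher in all granulosa than in all cumulus libraries, and contralateral cumulus library 4 was the highest cumulus library for all 4 genes.

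LAMA5, the alpha chain gene of epithelial basement membranes, was low in cumulus and high in granulosa cells. In cumulus cells it stood at 1.78, 2.38, 2.76 and 1.04 CPM in ipsilateral libraries 1 to 4 and at 3.82, 3.26, 3.63 and 4.48 CPM in contralateral libraries 1 to 4. In granulosa cells it stood at 15.2, 12.8, 12.95 and 15.1 CPM in ipsilateral and at 11.6, 12.6, 13.4 and 18.5 CPM in contralateral libraries. Every cumulus library lay below every granulosa library. The means were 2.89 ± 1.14 CPM over the cumulus libraries and 14.02 ± 2.16 CPM over the granulosa libraries (SD, n = 8 per cell type), a fitted log2 fold change, cumulus minus granulosa, of -2.35 ± 0.19 SE, or a level 5.10-fold lower in cumulus cells. It lay between -2.46 and -2.24 with each library left out in turn. PF4 was also higher in every granulosa library than in every cumulus library, and its part in the difference was not tested.

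The cell type difference of LAMA5 was present on both sides. On the ipsilateral side the log2 fold change, cumulus minus granulosa, was -2.82 ± 0.27 SE, a 7.06-fold lower level, and on the contralateral side it was -1.88 ± 0.26 SE, a 3.69-fold lower level. In cumulus cells the 4 ipsilateral libraries, at most 2.76 CPM, all lay below the 4 contralateral ones, at least 3.26 CPM. LAMA5 averaged 1.99 ± 0.753 CPM over ipsilateral and 3.80 ± 0.512 CPM over contralateral cumulus libraries (SD, n = 4 per side), a log2 fold change of -0.94 ± 0.33 SE. Without contralateral libraries 2 and 4, which held oocyte transcripts, it was -0.91. LAMA5 is 1 of 392 of 16323 entries, 2.4%, whose ipsilateral cumulus libraries all lay below the contralateral ones.

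In granulosa cells, where LAMA5 had not been named by side, it was tested. The means were 14.02 ± 1.29 CPM over ipsilateral and 14.02 ± 3.04 CPM over contralateral granulosa libraries (SD, n = 4 per side), and the libraries of the sides overlapped. The log2 fold change was 0.00053 ± 0.20 SE, with a 95% interval from -0.45 to 0.45 and an adjusted p of 0.9997 by edgeR's quasi-likelihood test. The values leave room for a difference of either sign within this interval, which is not a limit of detection. The difference of the side differences, cumulus minus granulosa, was -0.94 ± 0.36 SE on the log2 scale for LAMA5.

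LAMA2 showed another pattern, with overlapping levels in 3 groups and lower levels in contralateral granulosa cells. In cumulus cells it stood at 4.06, 3.94, 3.50 and 3.59 CPM in ipsilateral and at 3.88, 3.31, 3.63 and 5.79 CPM in contralateral libraries. In granulosa cells it stood at 4.54, 4.91, 3.14 and 3.19 CPM in ipsilateral and at 2.11, 2.59, 2.33 and 1.89 CPM in contralateral libraries. The contralateral granulosa libraries all lay below every other library, and the other 3 groups overlapped. The group means were 3.77 ± 0.269 CPM in ipsilateral cumulus, 4.15 ± 1.12 CPM in contralateral cumulus, 3.95 ± 0.913 CPM in ipsilateral granulosa and 2.23 ± 0.301 CPM in contralateral granulosa cells (SD, n = 4 each).

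In granulosa cells LAMA2 had a log2 fold change, ipsilateral minus contralateral, of 0.82 ± 0.33 SE, or 1.77-fold. With each library left out in turn it lay between 0.70 and 0.91. No overlap in this direction was seen for 140 of 16411 entries, 0.853%. The log2 fold change between cell types, cumulus minus granulosa, was 0.41 ± 0.19 SE with both sides and 0.89 ± 0.27 SE on the contralateral side. On the ipsilateral side it was near 0, at -0.06 ± 0.27 SE, with a 95% interval from -0.63 to 0.50.

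LAMA2 had not been named by side in cumulus cells and was tested there. The log2 fold change, ipsilateral minus contralateral, was -0.14 ± 0.26 SE, with a 95% interval from -0.71 to 0.42 and an adjusted p of 0.868 by edgeR's quasi-likelihood test. The highest value, 5.79 CPM in contralateral library 4, set the sign. Without that library the log2 fold change was 0.06. The difference of the side differences, cumulus minus granulosa, was -0.96 ± 0.38 SE for LAMA2, beside the -0.94 ± 0.36 SE of LAMA5. The sides of LAMA2 were apart in granulosa libraries and those of LAMA5 in cumulus libraries.

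**Figure D2:**
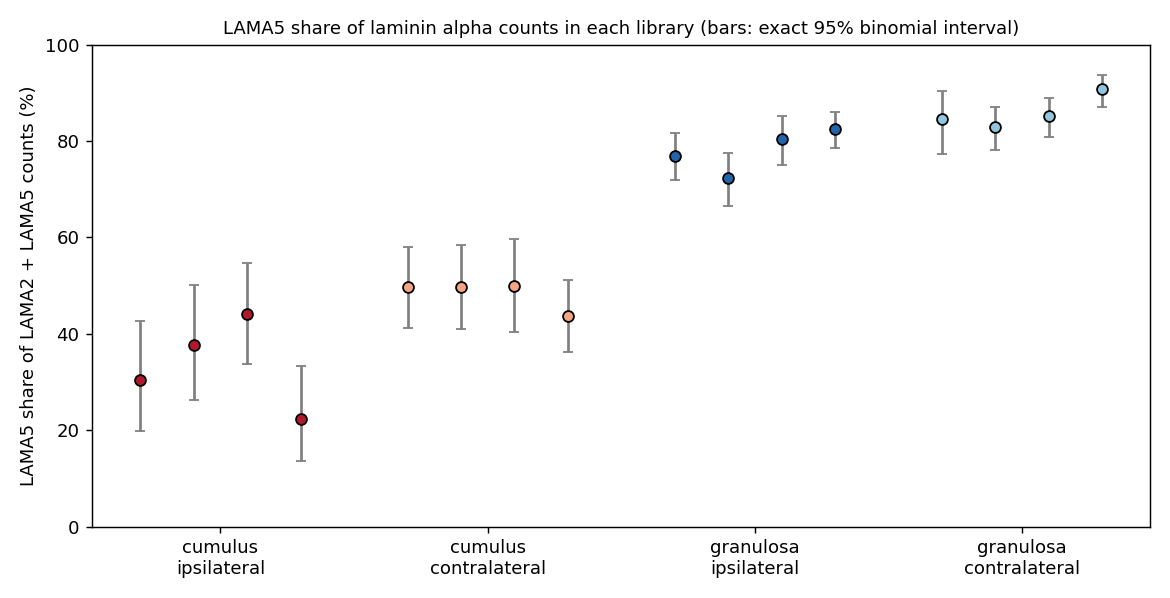
LAMA5 counts as a percent of LAMA2 plus LAMA5 counts in each library (points) with exact binomial 95% intervals (bars), grouped by cell type and side. Shares were between 22.4% and 50% in cumulus and between 72.3% and 90.7% in granulosa libraries.

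The balance of both laminin alpha chains within a library does not depend on scaling between libraries. LAMA5 made up 30.4%, 37.7%, 44.1% and 22.4% of the LAMA2 plus LAMA5 counts in ipsilateral cumulus libraries 1 to 4 and 49.7%, 49.6%, 50% and 43.6% in contralateral ones. In granulosa cells it made up 77.0%, 72.3%, 80.5% and 82.6% in ipsilateral and 84.6%, 83.0%, 85.2% and 90.7% in contralateral libraries. The share was 40.9% ± 10.1 in cumulus and 82.0% ± 5.55 in granulosa libraries (SD, n = 8 each), and the cell types did not overlap. Counts are not corrected for transcript length, so a share can be compared between libraries but does not say which chain was more abundant.

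The share was lower on the ipsilateral side in both cell types. It averaged 33.6% ± 9.36 in ipsilateral and 48.2% ± 3.06 in contralateral cumulus libraries, and 78.1% ± 4.48 in ipsilateral and 85.9% ± 3.36 in contralateral granulosa libraries (SD, n = 4 each). Ipsilateral cumulus library 3, at 44.1%, lay above contralateral library 4, at 43.6%, and in granulosa cells all ipsilateral libraries lay below all contralateral ones. The intervals were widest in ipsilateral cumulus libraries, where the 2 genes together had 69 to 93 counts, for example from 13.6% to 33.4% around the 22.4% of library 4. These shares are built from the levels above and are a description.

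MXRA5 was the gene of the 4 with the widest gap between cell types. In cumulus cells it stood at 0.676, 0.367, 0.135 and 0.0609 CPM in ipsilateral libraries 1 to 4, from 8, 4, 2 and 1 counts, and at 0.531, 1.51, 0.648 and 3.07 CPM in contralateral libraries. In granulosa cells it stood at 21.8, 15.8, 17.0 and 12.8 CPM in ipsilateral and at 8.55, 4.76, 9.96 and 12.8 CPM in contralateral libraries. Within cumulus cells the level was highest in contralateral library 4 and lowest in ipsilateral library 4.

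MXRA5 had not been named between cell types and was tested there. It averaged 0.874 ± 0.991 CPM over the cumulus libraries and 12.9 ± 5.33 CPM over the granulosa libraries (SD, n = 8 per cell type), with a log2 fold change of -4.23 ± 0.42 SE, an 18.8-fold lower level on average in cumulus cells, and each of the 8 cumulus libraries lay below each granulosa library. The adjusted p was 3.16e-07 by edgeR's quasi-likelihood test. The log2 fold change lay between -4.59 and -4.03 with each library left out. By side it was -5.82 ± 0.66 SE on the ipsilateral side, a 56.5-fold lower level, and -2.64 ± 0.53 SE on the contralateral side, a 6.23-fold lower level. PF4 was likewise higher in the granulosa libraries, and its part in this difference was not tested. An entry that could not be named followed MXRA5 closely in every library, and whether both were counted from the same reads was not tested.

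The sides of MXRA5 ran in opposite directions in the 2 cell types. In cumulus cells the means were 0.310 ± 0.277 CPM over ipsilateral and 1.44 ± 1.17 CPM over contralateral libraries (SD, n = 4 per side), a log2 fold change of -2.27 ± 0.77 SE. In granulosa cells they were 16.9 ± 3.77 CPM over ipsilateral and 9.02 ± 3.34 CPM over contralateral libraries (SD, n = 4 per side), a log2 fold change of 0.90 ± 0.31 SE. The sides overlapped in both cell types, in granulosa cells only by ipsilateral library 4 and contralateral library 4, each at 12.8 CPM. The difference of the side differences was -3.18 ± 0.81 SE on the log2 scale.

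In cumulus cells the MXRA5 level was highest in contralateral libraries 4 and 2. These held MXRA5 at 1.51 and 3.07 CPM and were the cumulus libraries with the most oocyte transcripts. The other 2 contralateral libraries, at 0.531 and 0.648 CPM, lay below ipsilateral library 1, at 0.676 CPM. They lay above ipsilateral libraries 2, 3 and 4, at 0.367, 0.135 and 0.0609 CPM. Without contralateral library 2 or 4, or both, MXRA5 did not pass the filter on low counts in cumulus cells. The difference of the side differences was -3.16 without contralateral cumulus library 2 and -2.52 without contralateral cumulus library 4. Without both of these and contralateral granulosa library 3 it was -1.96, against -3.18 with all libraries. Without ipsilateral library 1 the cumulus side difference was -3.00. The part of the oocyte transcripts was not tested.

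CILP was the rarest of the 4 genes, with 280 counts over all libraries. In cumulus cells it stood at 0.254, 1.74, 0.471 and 0.122 CPM in ipsilateral libraries 1 to 4 and at 2.07, 1.85, 1.69 and 6.07 CPM in contralateral libraries. In granulosa cells it stood at 0, 0.0655, 1.73 and 0 CPM in ipsilateral libraries, from 0, 1, 27 and 0 counts, and at 0.211, 0, 0.446 and 0 CPM in contralateral libraries. Thus 4 of 8 granulosa libraries held no count, and ipsilateral granulosa library 3 held 27 of the 28 counts of its group.

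Between cell types CILP averaged 1.78 ± 1.90 CPM over the cumulus libraries and 0.307 ± 0.597 CPM over the granulosa libraries (SD, n = 8 per cell type). The log2 fold change was 2.30 ± 0.95 SE, a 4.91-fold ratio, and the libraries of the cell types overlapped. The filter needed 4 libraries over 0.618 CPM, which 4 contralateral cumulus, 1 ipsilateral cumulus, 1 ipsilateral granulosa and 0 contralateral granulosa libraries exceeded. The log2 fold change was 4.32 without ipsilateral granulosa library 3, which had the highest MUC16 level, 3.08 without contralateral granulosa library 3 and 1.72 without ipsilateral cumulus library 2.

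On the contralateral side the CILP means were 2.92 ± 2.11 CPM over cumulus and 0.164 ± 0.213 CPM over granulosa libraries (SD, n = 4 per cell type), without overlap, and the fitted log2 fold change was 4.08 ± 1.42 SE. On the ipsilateral side the means were 0.647 ± 0.744 CPM over cumulus and 0.449 ± 0.855 CPM over granulosa libraries (SD, n = 4 per cell type), with overlap and a log2 fold change of 0.51 ± 1.29 SE. The overlap came from ipsilateral granulosa library 3, at 1.73 CPM, since the other 3 ipsilateral granulosa libraries, at most 0.0655 CPM, lay below every ipsilateral cumulus library. This order lies within counting error. The lowest ipsilateral cumulus value, 0.122 CPM in library 4, came from 2 counts. A count of 0, as in ipsilateral granulosa library 1, allows up to 0.194 CPM there. All 4 genes had no overlap between cumulus and granulosa cells on the contralateral side, as had 44.4% of entries tested, and 2 of 4, LAMA5 and MXRA5, had none on the ipsilateral side, as had 43.1%.

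In cumulus cells CILP had a log2 fold change, ipsilateral minus contralateral, of -2.23 ± 0.73 SE. The sides overlapped through ipsilateral library 2, at 1.74 CPM, and contralateral library 3, at 1.69 CPM. Without contralateral libraries 2 and 4 the value was -1.59, and it was -3.35 without ipsilateral library 2. In granulosa cells CILP did not pass the filter on low counts, so its side difference was not fitted there. The difference of the side differences was -3.57 ± 1.89 SE and turned to 0.47 without ipsilateral granulosa library 3.

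**Figure D3:**
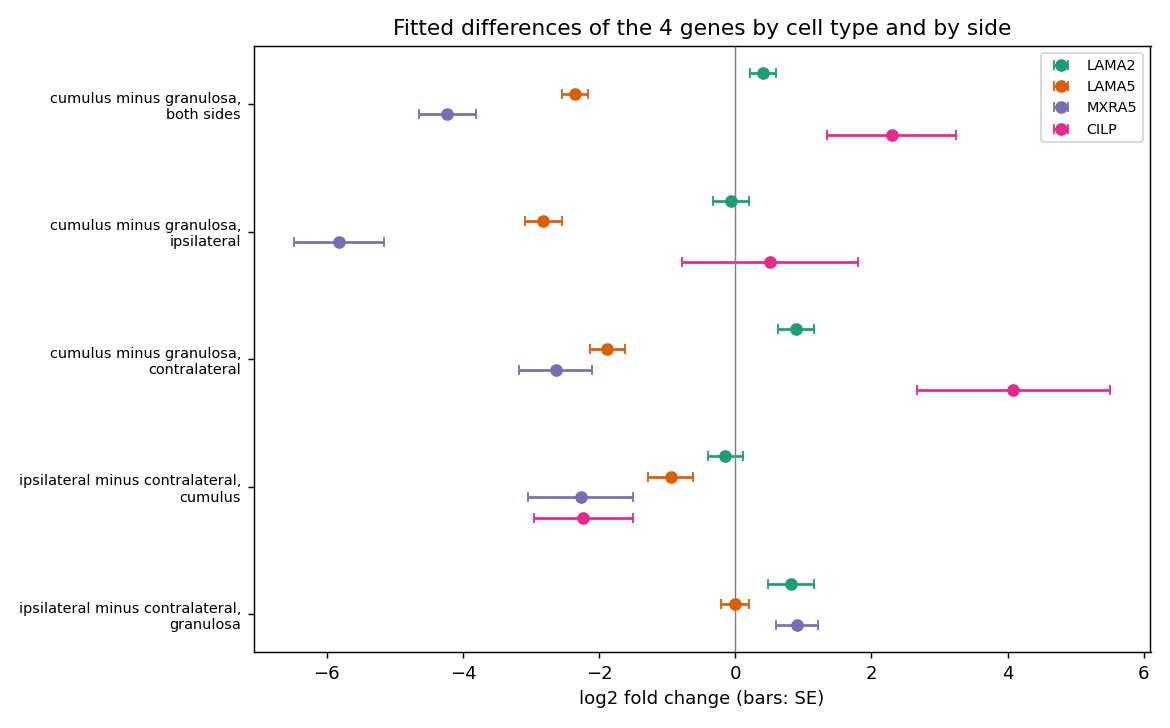
Fitted log2 fold changes of the 4 genes (horizontal axis; bars are SE) in 5 contrasts, from cumulus minus granulosa at the top to ipsilateral minus contralateral at the bottom. In cumulus cells LAMA5, MXRA5 and CILP lay below 0, and in granulosa cells LAMA2 and MXRA5 lay above 0. The earlier results that chose these genes had used these contrasts. LAMA2 in cumulus cells, at -0.14, and LAMA5 in granulosa cells, at 0.00053, lay within their SE of 0. CILP was not fitted by side in granulosa cells.

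The order of the groups differed from gene to gene. LAMA5 was highest in granulosa cells of both sides, which did not differ beyond their spread, followed by contralateral and then ipsilateral cumulus cells, each step without overlap. MXRA5 ran from ipsilateral granulosa over contralateral granulosa and contralateral cumulus to ipsilateral cumulus cells, with overlap between the sides of each cell type. LAMA2 had overlap among its 3 upper groups, and CILP between each pair of neighbouring groups.

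Read against the whole table, the cell type contrast called 10858 of 18038 entries, 60.2%, at an adjusted p under 0.05, 29.9% higher and 30.3% lower in cumulus cells. No overlap between the 8 cumulus and 8 granulosa libraries was seen for 28% of entries, and for 2 of the 4 genes. Of the 4 genes, MXRA5 alone was tested there, and its call stands beside a background in which most entries passed. By edgeR, 0% of entries passed by side in cumulus cells (0 of 16323), 0% by side in granulosa cells (0 of 16411) and 0% for the difference of the side differences (0 of 18038), with 1791, 579 and 1358 entries at an unadjusted p under 0.05. DESeq2 called 120, 1 and 1. No side difference given here passed edgeR's threshold.

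**Figure D4:**
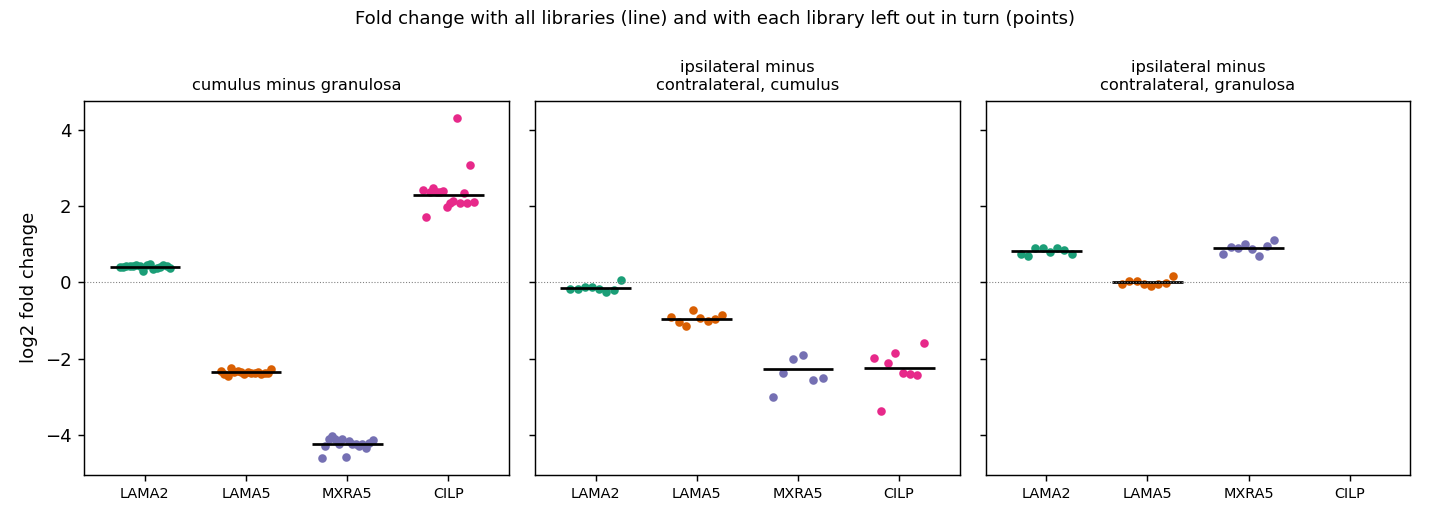
Log2 fold change (vertical axis) with all libraries (lines) and with each library left out in turn (points) for the cell type contrast (16 libraries) and for both side contrasts (8 libraries each). CILP moved between 1.72 and 4.32 in the cell type contrast, while LAMA5 stayed between -2.46 and -2.24.

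Contralateral cumulus library 4 was the highest cumulus library for each of the 4 genes, at 5.79 CPM for LAMA2, 4.48 CPM for LAMA5, 3.07 CPM for MXRA5 and 6.07 CPM for CILP. It was also the library with the most oocyte transcripts. Ipsilateral cumulus library 4 was the lowest for LAMA5, MXRA5 and CILP. No granulosa library held such a place for more than 1 of the 4 genes at the upper end.

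Other matrix genes were taken from 5 lists of basement membrane, laminin receptor, other matrix, matrix enzyme and CCN genes. Besides the 4 members, 28 entries were found by name and 20 of them were tested between cell types. Of these 20, 9 were higher and 5 lower in cumulus cells and 6 did not pass, where 29.9% of all entries tested were higher and 30.3% lower. The 20 genes had a median log2 fold change of 0.58, against 0.03 over all entries. No beta or gamma laminin chain, integrin, dystroglycan or nidogen gene was found by name. By side, 0 of 15 passed in cumulus cells and 0 of 15 in granulosa cells.

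In the basement membrane list, COL4A4, a chain of the collagen network to which laminins are joined, was higher in cumulus cells, at 419 ± 50.3 CPM over cumulus libraries against 177 ± 42.4 CPM over granulosa libraries (SD, n = 8 per cell type). Its log2 fold change was 1.25 ± 0.12 SE, opposite in sign to that of LAMA5. The reference places RHBDD1 over COL4A4, and the libraries do not mark strand, so some of these reads cannot be assigned with certainty. By side COL4A4 had log2 fold changes of -0.12 in cumulus and 0.23 in granulosa cells and did not pass. COL9A2 aside, the 11 matrix genes other than the 4 members described here as higher or lower were named because they passed edgeR's threshold in this contrast. Their passing follows from that choice and is not a separate test.

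In the list of other matrix genes, values are log2 fold changes, cumulus minus granulosa. Here 7 of 11 tested genes other than CILP and MXRA5 were higher and 1 lower in cumulus cells, beside 29.9% and 30.3% of all entries. COL4A4, given above, belongs to this list too and is 1 of the 7. The call of 1 of the 7, COL9A2, named after its values were seen, was lost without any 1 of 5 libraries. COL25A1 (3.28 ± 0.33 SE), COLQ, which anchors acetylcholinesterase to the matrix (2.62 ± 0.27 SE), and COL21A1 (2.87 ± 0.43 SE) were higher in cumulus cells. COL24A1, a fibrillar collagen gene, was lower (-3.41 ± 0.50 SE), in the direction of MXRA5. Of the 3 tested enzyme and inhibitor genes, the protease inhibitor genes TIMP1 (-5.29 ± 0.31 SE) and A2M (-6.15 ± 0.55 SE) were lower in cumulus cells, with -7.06 for A2M without ipsilateral cumulus library 2.

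Among the CCN genes, which encode secreted matrix-associated signals, WISP3 (2.20 ± 0.42 SE) and NOV (CCN3, 1.89 ± 0.59 SE) were higher and CYR61 (CCN1, -0.77 ± 0.13 SE) was lower in cumulus cells. WISP1 had 0 counts in cumulus and 179 in granulosa libraries, at least 56.5-fold lower in cumulus cells with a floor of 3 counts over its 8 libraries. Ipsilateral granulosa library 1 held 67 of these counts, and without it the bound was 39.98-fold. In granulosa cells, 1 of the 8 libraries also held no count of WISP1. Reads of genes that overlap another gene cannot be assigned with certainty, as for TIMP1 and SYN1, since the library kits do not mark strand. Among the matrix genes named above, other genes also lie over COL4A4, COL24A1 and COL25A1, and WISP1 and WISP3 could not be placed. The reference places no other gene over LAMA2, LAMA5, MXRA5 or CILP.

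**Figure D5:**
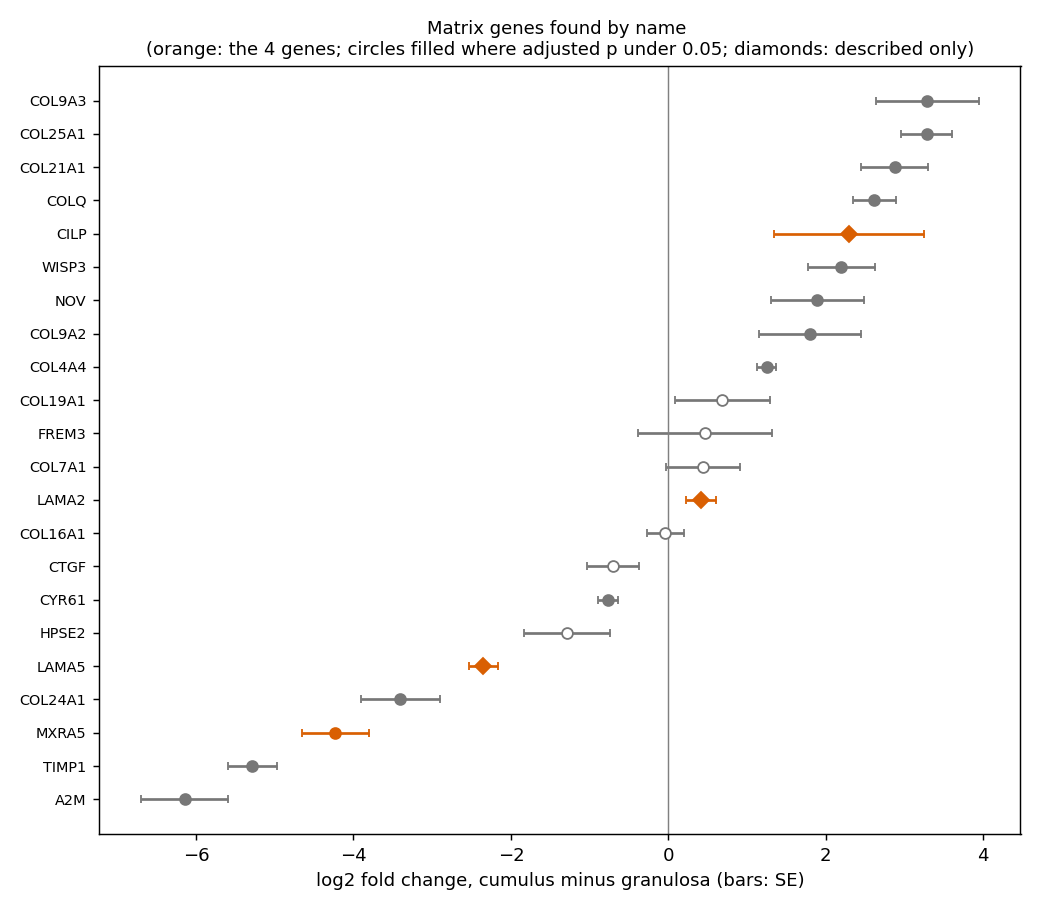
Log2 fold change, cumulus minus granulosa (horizontal axis; bars are SE), of the matrix genes found by name and tested, leaving out WISP1 and COL9A1, which had 3 counts or fewer in 1 cell type. Filled circles passed edgeR's threshold, and diamonds mark LAMA2, LAMA5 and CILP, which are described only. A2M, TIMP1, MXRA5, COL24A1 and LAMA5 lay lowest.

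The named entries with the most similar levels were ranked by Pearson's r of log2 CPM over the 16 libraries, among 812 named entries. For LAMA5 these included TNIK (0.97), SYN3 (0.95), TIMP1 (0.95) and SEPT2 (SEPTIN2, 0.95). For MXRA5 they were PNPLA3 (0.96) and a further entry that the reference gives the same symbol (0.96), LAMA5 (0.94), SYN3 (0.93) and FAM46A (0.93). Libraries of both cell types entered each r, and no r within a cell type was computed. The reference places other genes over TNIK, SYN3, TIMP1 and SEPT2, with TIMP3 among those over SYN3. Without strand, reads counted for these entries cannot be assigned with certainty.

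For CILP the values were lower, with FAM160A1 (0.81), the heat shock gene HSPA6 (0.81), GVQW3 (0.78), ZNF232 (0.74) and HIST2H2BF (0.73). LAMA2 had the weakest likeness, with PABPC1L2A (0.77), the phospholipase gene PLCB3 (0.73), TMEM154 (0.72), OSCAR (0.70) and WDR34 (DYNC2I2, 0.69). Other genes likewise lie over GVQW3, TMEM154 and WDR34. Of 17225 unnamed entries, 53 for LAMA5, 132 for MXRA5, 97 for CILP and 109 for LAMA2 were at least as similar as the last named one.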

How the data were processed

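RNA-seq was made from pools of cumulus and granulosa cells of cattle. Per the labels' protocols, the SMART-Seq HT kit gave cDNA from DNase-treated RNA, Nextera XT was used for libraries, and reads were single-end of 75 bp. FastQC, Trimmomatic, STAR and DESeq2 were used, per the submitters' processing notes. Which build, annotation and counting tool were used is not given in the sources used here. Per gene entry, the authors deposited raw counts, 1 column per library, matched to samples by title. Of 36824 entries, 27607 carry Ensembl IDs that the RefSeq gene table used here does not pair with symbols, and 2474 have a name.

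Tests used edgeR 4.0.16 (R 4.3.3) on all entries with filterByExpr (minimum count 10, minimum total 15), TMM factors, robust dispersions and the quasi-likelihood F-test, with Benjamini-Hochberg adjustment and a threshold of 0.05. Cell types and the difference of side differences were fitted on 16 libraries, sides on the 8 libraries of a cell type. SE is the log2 fold change, without its sign, over the root of F. The fits were also run on simulated counts, drawn independently for each library, and the outcome is not reported here. Alternatives were DESeq2 1.42.0, limma-voom (limma 3.58.1), RLE size factors, no filter, single sides and each library left out. CILP between cell types, planned as a test, is described only. The members and lists were chosen with earlier results of these data known. Named are the members, laminins and integrins, per list up to 6 called matrix genes by p, and per member 5 similar entries, of which 1 is not reported here.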

Additional observations from a re-analysis of the deposited data

Results flagged for a closer look

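Within groups of 4 libraries, 2 of 16 combinations of gene and group held a library far from the other 3 by Dixon's test, and chance flags about 1 in 20. CILP stood at 6.07 CPM in contralateral cumulus library 4, where the other 3 lay between 1.69 and 2.07 CPM. That library also held the most oocyte transcripts, 112 CPM of BCL2L10 and 92.6 CPM of H1FOO, and their part was not tested. CILP stood at 1.73 CPM in ipsilateral granulosa library 3, where the other 3 held at most 0.0655 CPM. That library also had the highest MUC16 level, 44.3 CPM, whose part was not tested.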

How the results depend on the processing

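No paired analysis was possible because the labels give no replicate numbers and do not tie pools to animals. By side, edgeR's 0 calls became 120 in cumulus cells and 1 in granulosa cells with DESeq2, and 1 for the difference of the side differences. Without the libraries with oocyte transcripts, chosen after the data had been seen, 30 entries were called by side in cumulus cells. The cell type calls, 10858, lay between 10582 and 11055 with each library left out. LAMA2 by side in cumulus cells turned to 0.0026 without the libraries with oocyte transcripts and lay between -0.24 and 0.059 with each library left out, and its cell type difference turned to -0.071 with ipsilateral libraries alone. LAMA5 by side in granulosa cells, near 0, turned to -6.3e-04 with DESeq2, -2.1e-04 without the filter, -0.020 without the libraries with oocyte transcripts and -0.0011 with all 16 libraries in the fit, and lay between -0.080 and 0.16 with each library left out. The difference of the side differences of CILP lay between -5.14 and 0.47 with each library left out. CILP between cell types, log2 2.30, had 2.74 without the libraries with oocyte transcripts and could not be fitted with ipsilateral libraries alone. The causes were not tested. Counts of MXRA5 and CILP in cumulus cells, 1 to 107 per library, limit what can be said of their sides.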

Other observations

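The entry ENSBTAG00000022150, which could not be named here and was chosen after its values were seen, had the levels most like those of MXRA5. Pearson's r of the log2 counts was 0.997 over the 16 libraries, which fall into 2 cell types, and the counts differed by at most 29 in a library and were equal in 2, with 1668 counts against 1829 in all. It averaged 0.278 ± 0.310 CPM over ipsilateral and 1.28 ± 1.04 CPM over contralateral cumulus libraries, and 15.5 ± 3.54 CPM over ipsilateral and 8.10 ± 3.06 CPM over contralateral granulosa libraries (SD, n = 4 per group). Its count was at or below that of MXRA5 in 16 of 16 libraries. The most similar unnamed entries of LAMA5 (r of 0.990) and LAMA2 (0.909) also lay at or below their gene in 16 of 16 libraries, and that of CILP (0.893) in 13 of 16. Whether such pairs count the same reads was not tested. No entry lay within 2% or 2 counts of LAMA2, LAMA5, MXRA5 or CILP in every library.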
